A study of Rattus norvegicus with 11 samples.

Results

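The alpha2delta subunits of voltage-gated calcium channels, encoded by Cacna2d1, Cacna2d2 and Cacna2d3, were lower at the RNA level in rat hippocampal neurons that expressed a C-terminal frameshift mutant of linker histone H1.4 than in either set of control neurons. These 3 genes were taken by symbol from the 42172 genes counted in each library. They were chosen by gene family with the group levels of the same libraries already known, so their values are a description and carry no test. The neurons were primary cultures from the hippocampus of CD (Sprague Dawley) IGS rats, at day 7 in vitro (DIV7). There were 4 libraries of H1.4 CFT neurons, which expressed exogenous H1.4 with the C-terminal frameshift tail, 4 of WT H1.4 neurons, which expressed exogenous wildtype H1.4, and 3 of GFP neurons as the control. Cells of all 3 groups thus carried an exogenous protein. The promoter, the vector and the share of cells that took up each construct are not given in the sources used here. Libraries are named by group and replicate number, 1 to 4 for H1.4 CFT and WT H1.4 and 2 to 4 for GFP. They are called biological replicates, but nothing says whether they came from separate animals or cultures, so p-values measure the spread between these libraries, which may be technical.

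Voltage-gated calcium channels let calcium into neurons when the membrane depolarizes, and at presynaptic terminals that calcium triggers transmitter release. The pore is an alpha1 subunit, a cytoplasmic beta subunit binds it from inside, and an alpha2delta subunit binds it from outside. Each alpha2delta protein is made as a single precursor that is cut into alpha2 and delta, which stay linked and anchored to the outer membrane. These subunits raise the number of CaV1 and CaV2 channels at the surface and in terminals. Cacna2d1 encodes the main binding protein of the drugs gabapentin and pregabalin and, in rodent neurons, a receptor for thrombospondins in the formation of excitatory synapses. Cacna2d2 also binds gabapentin and is the gene mutated in the ducky mouse, which has ataxia and seizures. Cacna2d3 has been tied to pain processing in flies and mice and to hearing in mice.

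The promoters of the 3 genes are shown because the genes had lower RNA levels together and the mutated protein is a chromatin protein. Each line gives the 250 bases before the annotated start in RefSeq (build GRCr8), 5′ to 3′ on the strand of the gene. Capitals mark GC boxes, GGGCGG or CCGCCC, the letters read on either strand by Sp family factors. Sequences were found for 3 of 3 genes. Cacna2d1 lies at chr4:20330148-20330397 on the minus strand, where the most upstream of 3 listed starts was used. Cacna2d2 lies at chr8:116950856-116951105 on the plus strand and Cacna2d3 at chr16:4918900-4919149 on the minus strand.
Cacna2d1: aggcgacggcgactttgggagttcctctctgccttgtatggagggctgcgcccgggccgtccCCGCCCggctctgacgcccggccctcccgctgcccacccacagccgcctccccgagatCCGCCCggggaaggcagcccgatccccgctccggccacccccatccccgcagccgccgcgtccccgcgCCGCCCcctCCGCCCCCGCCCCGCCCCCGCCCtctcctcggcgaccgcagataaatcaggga
Cacna2d2: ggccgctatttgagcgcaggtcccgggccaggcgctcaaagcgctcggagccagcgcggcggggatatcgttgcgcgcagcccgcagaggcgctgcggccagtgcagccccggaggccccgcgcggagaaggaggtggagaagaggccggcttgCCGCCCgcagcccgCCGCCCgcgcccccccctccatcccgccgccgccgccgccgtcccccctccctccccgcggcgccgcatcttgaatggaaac
Cacna2d3: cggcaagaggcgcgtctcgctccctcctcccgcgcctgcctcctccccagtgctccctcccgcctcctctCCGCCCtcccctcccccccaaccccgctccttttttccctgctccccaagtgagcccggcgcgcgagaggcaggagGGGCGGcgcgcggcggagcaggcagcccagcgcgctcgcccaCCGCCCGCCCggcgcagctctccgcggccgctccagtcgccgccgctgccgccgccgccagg
All 3 windows were rich in G and C. The GC content was 77.2% for Cacna2d1, 76.8% for Cacna2d2 and 78.8% for Cacna2d3, against a median of 52% over 27457 windows of the same length. They held 32, 36 and 34 CpG dinucleotides in the same gene order, against a median of 6. The Cacna2d1 window held 7 GC boxes, of which 2 overlapped another, and 99.6% of windows held fewer. Cacna2d2 had 2 GC boxes, and 83.9% of windows held fewer. Cacna2d3 had 4, of which 2 overlapped another, and 96% of windows held fewer. A GC box was present in 32.4% of all windows. The EGR letters GCGGGGGCG occurred 2 times, both in the Cacna2d1 window and both over GC boxes, and in 2.49% of all windows. The E-box CACCTG, found in 15.7% of windows on either strand, and the CRE TGACGTCA, found in 1.69%, were in none of the 3. These matches describe the letters and are not evidence of bound factors.

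Reads assigned to genes numbered between 12070941 (GFP 3) and 18846492 (WT 1) per library. Of 29259 genes with at least 1 count, 17294 passed a filter on low counts and were tested, the 3 alpha2delta genes among them. Levels are counts adjusted for library size by TMM scaling (CPM). They compare a gene between libraries and not 1 gene with another, because gene lengths are not taken into account. Reads on H1f4, the rat gene for H1.4, numbered 5 to 8 per H1.4 CFT library, 1 to 5 per WT H1.4 library and 0 to 2 per GFP library, which does not check the constructs. All 6 neuronal markers were present in every group, and the lowest of them, Rbfox3, averaged 96.6 CPM in H1.4 CFT neurons, 123 CPM in WT H1.4 and 119 CPM in GFP neurons. Astrocyte markers were also well above 0, while microglial markers summed to no more than 13.7 CPM in any library and Cx3cr1 was at 0 in all WT H1.4 libraries.

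Cacna2d1 was lowest in H1.4 CFT neurons, intermediate with WT H1.4 and highest with GFP. Its level was 99.0, 98.6, 81.4 and 86.2 CPM in H1.4 CFT libraries 1 to 4, from 1744, 1751, 1433 and 1662 reads. In WT H1.4 libraries 1 to 4 it was 116, 100.3, 118 and 114 CPM, from 2139, 1387, 2141 and 1875 reads. GFP libraries 2 to 4 had 128, 120 and 127 CPM, from 1766, 1426 and 2117 reads. No 2 of the 3 groups overlapped. The gap between the highest H1.4 CFT library and WT 2, the lowest WT H1.4 library, was 1.36 CPM, and that between WT 3 and GFP 3 was 1.65 CPM. Both gaps are smaller than the counting error of 1 library, whose coefficient of variation was between 2.16% and 2.69%. Group means were 91.3 ± 8.88 CPM in H1.4 CFT neurons (SD, n = 4), 112 ± 7.97 CPM in WT H1.4 (n = 4) and 125 ± 4.69 CPM in GFP neurons (n = 3). The log2 fold change was -0.30 (SE 0.064) for H1.4 CFT relative to WT H1.4, a level 18.6% lower. Against GFP it was -0.46 (SE 0.069), 27.1% lower, and for WT H1.4 against GFP it was -0.16 (SE 0.068). In bulk RNA, fewer cells of a type and less RNA per cell cannot be told apart.

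Cacna2d2 was lower in H1.4 CFT neurons and had nearly equal means in both controls. It had 28.0, 26.2, 31.0 and 26.3 CPM in H1.4 CFT libraries 1 to 4, from 493, 465, 546 and 507 reads. WT H1.4 libraries 1 to 4 had 34.6, 34.0, 31.4 and 36.3 CPM, from 638, 470, 570 and 598 reads, and GFP libraries 2 to 4 had 37.0, 33.0 and 32.4 CPM, from 509, 393 and 539 reads. Every H1.4 CFT library lay below every library of the other groups, but CFT 3 was only 0.425 CPM below WT 3, less than the counting error of either. WT H1.4 and GFP overlapped. The means were 27.9 ± 2.25 CPM in H1.4 CFT neurons (SD, n = 4), 34.1 ± 2.01 CPM in WT H1.4 (n = 4) and 34.1 ± 2.49 CPM in GFP neurons (n = 3). The log2 fold change was -0.29 (SE 0.072) for H1.4 CFT relative to WT H1.4 and -0.29 (SE 0.078) against GFP, levels 18.2% and 18.3% lower. For WT H1.4 against GFP it was -0.0022 (SE 0.078).

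Cacna2d3 had the largest fold change of the 3 genes. Its level was 58.2, 57.1, 43.4 and 46.5 CPM in H1.4 CFT libraries 1 to 4, from 1026, 1014, 765 and 897 reads. WT H1.4 libraries 1 to 4 had 81.0, 73.3, 85.5 and 83.0 CPM, from 1496, 1013, 1550 and 1368 reads, and GFP libraries 2 to 4 had 71.7, 90.4 and 80.9 CPM, from 987, 1077 and 1346 reads. The H1.4 CFT libraries stood clear of both controls, 15.1 CPM below the lowest WT H1.4 library and 13.5 CPM below the lowest GFP library. WT H1.4 lay within the range of GFP. Group means were 51.3 ± 7.44 CPM in H1.4 CFT neurons (SD, n = 4), 80.7 ± 5.27 CPM in WT H1.4 (n = 4) and 81.0 ± 9.35 CPM in GFP neurons (n = 3). The log2 fold change was -0.66 (SE 0.099) for H1.4 CFT relative to WT H1.4 and -0.66 (SE 0.11) against GFP, levels 36.5% and 36.6% lower. For WT H1.4 against GFP it was -0.0023 (SE 0.11).

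**Figure D1:**
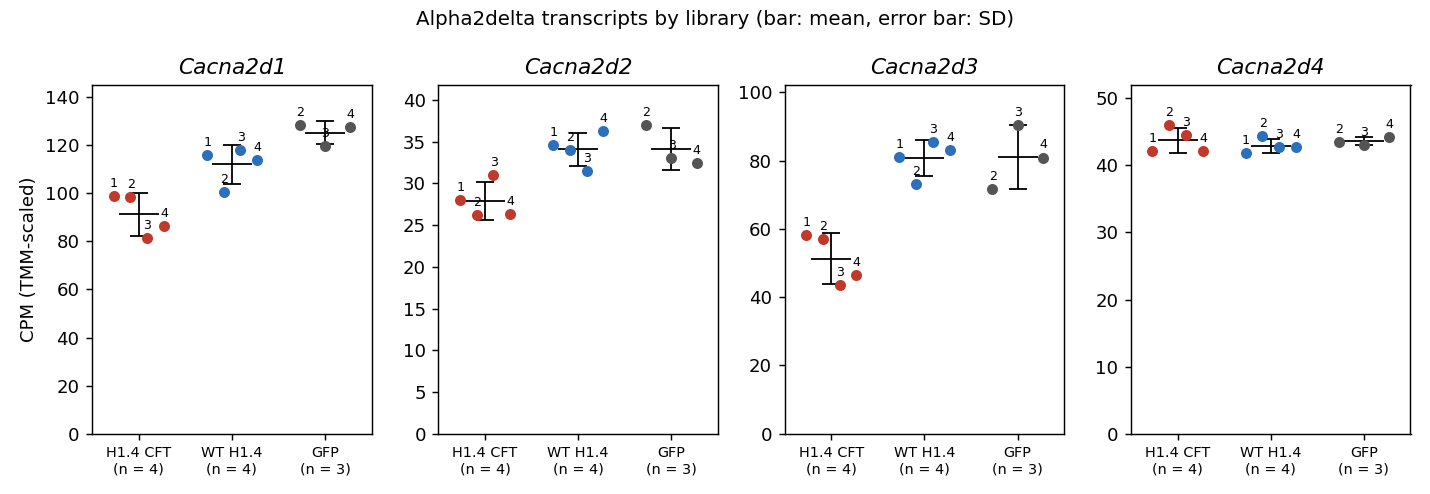
Level of each alpha2delta gene in CPM (y axis, from 0, a separate scale for each gene) in H1.4 CFT, WT H1.4 and GFP libraries; points are libraries with their replicate number, and lines show the group mean with its SD. H1.4 CFT libraries lie below all others for Cacna2d1, Cacna2d2 and Cacna2d3, while for Cacna2d4 the group means are 43.7, 42.9 and 43.6 CPM.

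In edgeR's quasi-likelihood test across all genes, with Benjamini-Hochberg adjustment and a threshold of 0.05, 3 of 3 members were called lower in H1.4 CFT relative to WT H1.4. Of all genes tested, 19.2% were called lower there and 35.9% in either direction. Every H1.4 CFT library lay below every WT H1.4 library for 3 of 3 members and for 18.5% of genes tested. Against GFP, 3 of 3 were called lower, where 16.2% of genes were called lower and 29.5% either way, and 3 of 3 did not overlap, as was the case for 18.5% of genes. The call of Cacna2d2 against GFP was lost without GFP 2 and with libraries 3 and 4 alone. For WT H1.4 against GFP, edgeR called 0 of 3, with 1 at an unadjusted p under 0.05, and DESeq2 and limma-voom also called 0. With libraries 1 and 2 alone, where GFP has 1 library, Cacna2d1 was called lower there. Of all genes, 0.943% were called there, 0.509% lower, and non-overlap with WT H1.4 below GFP was seen for 1 of 3 members (Cacna2d1) and 5.94% of genes. The family was picked with these contrasts known, so nothing is read from the counts.

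Among all genes tested, the differences of Cacna2d1 and Cacna2d2 were moderate in size, while Cacna2d3 lay near the lower end. For H1.4 CFT relative to WT H1.4, 15.7% of genes had a lower log2 fold change than Cacna2d1, 16.2% than Cacna2d2 and 4.19% than Cacna2d3. Against GFP the shares were 8.78% for Cacna2d1, 15.8% for Cacna2d2 and 4.50% for Cacna2d3. The median over all genes tested was 0.018 for H1.4 CFT relative to WT H1.4 and 0.011 against GFP.

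Cacna2d1 and Cacna2d3 also varied within the H1.4 CFT group, where libraries 3 and 4 had less of both than libraries 1 and 2. Cacna2d1 averaged 83.8 CPM in CFT 3 and 4 and 98.8 CPM in CFT 1 and 2, and Cacna2d3 averaged 45.0 and 57.7 CPM in the same pairs. Cacna2d2 did not follow them, with 28.6 CPM in CFT 3 and 4 and 27.1 CPM in CFT 1 and 2. The controls differed between these numbers as well. Cacna2d1 averaged 108 CPM in WT 1 and 2 and 116 CPM in WT 3 and 4, and Cacna2d3 77.2 and 84.2 CPM. In GFP 2 Cacna2d1 stood at 128 CPM and in GFP 3 and 4 at 123 CPM, and Cacna2d3 at 71.7 and 85.7 CPM. The fold changes by number thus hold differences of both sides. With libraries 1 and 2 alone the log2 fold change of H1.4 CFT relative to WT H1.4 was -0.14 for Cacna2d1 and -0.43 for Cacna2d3. With libraries 3 and 4 alone it was -0.47 and -0.91. Against GFP, Cacna2d3 had -0.32 in libraries 1 and 2, where GFP has 1 library, and -0.92 in libraries 3 and 4. The labels name no batch for these numbers. The summed neuronal markers moved the same way, at 3511 and 3623 CPM in CFT 1 and 2, 3135 and 3135 CPM in CFT 3 and 4, 4203 to 4320 CPM in WT H1.4 and 4074 to 4378 CPM in GFP libraries. Excitatory markers did so as well, at 991.8 and 998 CPM in CFT 1 and 2 and 797.6 and 837.6 CPM in CFT 3 and 4. Other markers went the other way. Inhibitory markers summed to 149 and 145 CPM in CFT 1 and 2 and to 184 and 173 CPM in CFT 3 and 4, and astrocyte markers to 1610 and 1604 CPM in CFT 1 and 2 and to 1713 and 1734 CPM in CFT 3 and 4. Their part in the alpha2delta levels was not tested.

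Cacna2d3 had the widest spread of the 3 genes between libraries when groups were pooled. Its biological coefficient of variation was 9.54%, and 94.5% of 7927 genes with a mean between 20 and 200 CPM had a smaller one. The values were 6.37% for Cacna2d1, 6.50% for Cacna2d2 and 4.91% for Cacna2d4. In the WT H1.4 group alone Cacna2d1 varied more, with a coefficient of variation of 7.12%, against 6.53% for Cacna2d3.

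The fourth family member, Cacna2d4, best known from photoreceptors of the retina, did not share the pattern. It had 42.2, 46.0, 44.6 and 42.1 CPM in H1.4 CFT libraries 1 to 4. WT H1.4 libraries 1 to 4 had 41.8, 44.4, 42.7 and 42.7 CPM, and GFP libraries 2 to 4 had 43.5, 43.0 and 44.2 CPM. All groups overlapped. The log2 fold change was 0.028 for H1.4 CFT relative to WT H1.4 (SE 0.053, 95% interval -0.083 to 0.14, edgeR adjusted p = 0.712). Against GFP it was 0.0044 (SE 0.058, 95% interval -0.12 to 0.13, edgeR adjusted p = 0.965). The intervals exclude a fall of the size measured for Cacna2d2, although a direct test of that difference was not made. Cachd1 encodes an alpha2delta-like protein that also modulates calcium channels. It fell in H1.4 CFT relative to WT H1.4 (125 ± 5.87 against 151 ± 16.1 CPM, SD, n = 4 each, log2 fold change -0.27, SE 0.060, edgeR adjusted p = 0.00167). Against GFP, at 137 ± 1.93 CPM (n = 3), the log2 fold change was -0.12 (SE 0.065, 95% interval -0.26 to 0.012, edgeR adjusted p = 0.164), which became a call with libraries 3 and 4 alone (adjusted p = 0.0174).

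Ratios of reads within a library do not depend on its depth or scaling. Because gene lengths are not taken into account, a ratio can be compared between groups but does not give the relative amounts of the genes. Cacna2d3 reads per Cacna2d1 read were 0.588, 0.579, 0.534 and 0.540 in H1.4 CFT libraries 1 to 4, a mean of 0.560, against 0.699 to 0.730 in WT H1.4 libraries, a mean of 0.721. H1.4 CFT thus lay below every WT H1.4 library but overlapped the GFP libraries, which ranged from 0.559 to 0.755. Cacna2d2 reads per Cacna2d1 read overlapped in all groups, with means of 0.309 in H1.4 CFT neurons, 0.306 in WT H1.4 and 0.273 in GFP libraries. Set against Cacna2d4, Cacna2d3 reads came to 0.975 to 1.38 per read in H1.4 CFT neurons, 1.65 to 2.00 in WT H1.4 and 1.65 to 2.10 in GFP libraries. Cacna2d1 reads per Cacna2d4 read ranged from 1.83 to 2.35 in H1.4 CFT neurons, 2.26 to 2.77 in WT H1.4 and 2.79 to 2.95 in GFP libraries. The last ratio of WT 2 lay within the H1.4 CFT range.

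**Figure D2:**
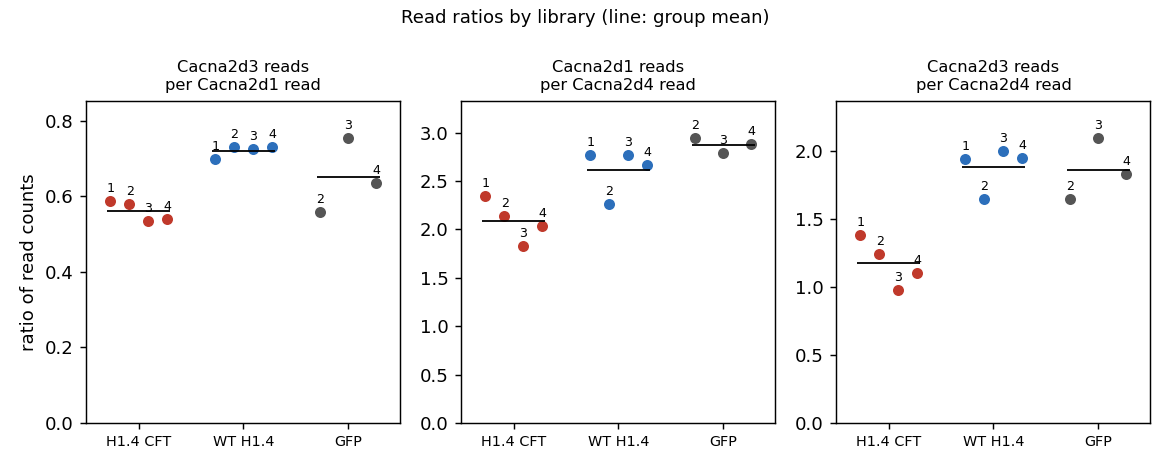
Ratio of raw reads of 2 alpha2delta genes within each library (y axis, from 0) in H1.4 CFT, WT H1.4 and GFP neurons; points are libraries with their replicate number and lines are group means. Cacna2d3 per Cacna2d1 averages 0.560 in H1.4 CFT neurons, 0.721 in WT H1.4 and 0.650 in GFP libraries.

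Cacna2d1 and Cacna2d3 went together across libraries more closely than either went with Cacna2d2. Pearson's r of log2 CPM over the 11 libraries, which include the 3 groups, was 0.895 for Cacna2d1 with Cacna2d3, 0.643 for Cacna2d1 with Cacna2d2 and 0.666 for Cacna2d2 with Cacna2d3. After removal of the group means the values were 0.695, -0.305 and -0.533 in the same order. The likeness left after removal of the group means was thus positive for the first pair only, and it did not hold in every group. In GFP libraries 2 to 4 that pair went opposite ways. Cacna2d1 had 128, 120 and 127 CPM there, and Cacna2d3 had 71.7, 90.4 and 80.9 CPM. Of 12426 genes with a mean of at least 2 CPM, those most like Cacna2d1 were Nrcam (r = 0.990), Unc80 (0.982), Vps36 (0.974), Cdc42se2 (0.970) and Slc24a2 (0.965). Nrcam encodes a neuronal cell adhesion protein and Unc80 a subunit of the sodium leak channel complex. Like Cacna2d1, Unc80 averaged 26.9 CPM in H1.4 CFT neurons, 36.2 CPM in WT H1.4 and 41.0 CPM in GFP neurons. The genes most like Cacna2d3 were Pink1 (r = 0.985), Cpd (0.984), Tubb2a (0.982), Got1 (0.982) and Ttl (0.980). Tubb2a is a beta tubulin and Ttl the tubulin tyrosine ligase. For Cacna2d2 they were Accs (r = 0.935), Tuft1 (0.927), Sgk1 (0.915), Stk39 (0.914) and Drp2 (0.912). An r above 0.9 was reached by 367 genes for Cacna2d1, 837 for Cacna2d3 and 10 for Cacna2d2. These libraries share their group differences, so r describes a shared pattern and no test was made.

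**Figure D3:**
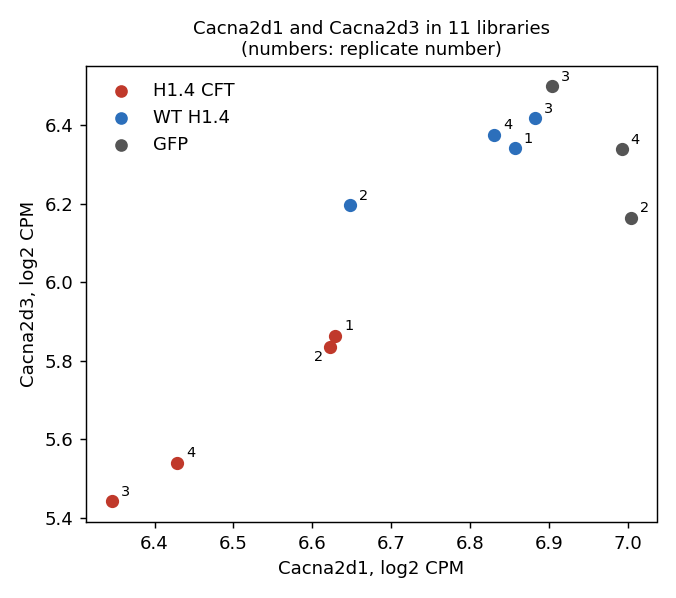
Cacna2d1 (x axis) against Cacna2d3 (y axis), both as log2 CPM, in the 11 libraries coloured by group and labelled by replicate number. H1.4 CFT libraries lie at the lower left with 3 and 4 lowest, and over all libraries r is 0.895.

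Several annotated genes overlap these loci, and whether the reads were counted by strand is not given in the sources used here. Without strand, reads from bases shared by genes on opposite strands cannot be told apart. Whether the genes named here lie on opposite strands was not examined. The long noncoding RNA LOC103693891, which overlaps Cacna2d3, had 80 to 179 reads per library and fell with H1.4 CFT (5.70 ± 0.952 against 8.74 ± 1.4 CPM in WT H1.4, SD, n = 4 each, log2 fold change -0.62, SE 0.14, edgeR adjusted p = 0.00170), a call lost with libraries 1 and 2 alone (-0.44, adjusted p = 0.0623). LOC120094259, a long noncoding RNA over Cacna2d2, had 429 to 605 reads and fell as well (log2 fold change -0.28, SE 0.084, edgeR adjusted p = 0.0147), but lost its call without WT 3 (0.0517) or CFT 4 (0.0519) and with libraries 1 and 2 alone (0.122). Lrtm1, which also overlaps Cacna2d3, had 0 to 7 reads per library. Lrtm2 and Adipor2 overlap Cacna2d4, and neither passed in H1.4 CFT relative to WT H1.4 (edgeR adjusted p = 0.211 and 0.504). The overlapping LOC134486713, LOC134480230, LOC134482443, LOC134486630 and Rpl7-ps11 were not analysed here.

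The alpha1 subunits, which form the pores of voltage-gated calcium channels, mostly fell or did not pass. Of 10 genes 9 could be tested, Cacna1s being too low. Against WT H1.4, 6 fell and 3 did not pass, with a median log2 fold change of -0.19 against 0.018 over all genes tested. Of all genes tested, 19.2% were called lower there. Cacna1b, the N-type pore of presynaptic terminals, fell to 146 ± 14.1 CPM in H1.4 CFT, against 178 ± 3.8 CPM in WT H1.4 (SD, n = 4 each, log2 fold change -0.29, SE 0.056, edgeR adjusted p = 0.000639). Cacna1e, the R-type pore, fell to 158 ± 25.6 CPM, against 225 ± 6.83 CPM in WT H1.4 (log2 fold change -0.51, SE 0.11, edgeR adjusted p = 0.00640). The T-type pores Cacna1h and Cacna1i also fell, with log2 fold changes of -0.38 (SE 0.065, edgeR adjusted p = 0.000320) and -0.67 (SE 0.13, adjusted p = 0.00226). Cacna1a, the P/Q-type pore (log2 fold change -0.19, edgeR adjusted p = 0.0278), and Cacna1g, another T-type pore (-0.14, adjusted p = 0.0295), fell by less. Cacna1a lost its call without WT 2, WT 3, WT 4, CFT 3 or CFT 4 (adjusted p 0.0531 to 0.0872), and Cacna1g without WT 3, WT 4, CFT 1 or CFT 4 (0.0533 to 0.109) or with the filter of 5 CPM (0.0543). With libraries 1 and 2 alone Cacna1a had a log2 fold change of -0.027 (edgeR adjusted p = 0.698) and Cacna1g one of -0.097 (0.163). The L-type pores Cacna1c, Cacna1d and Cacna1f did not pass.

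Against GFP, 5 of 9 alpha1 genes fell, 1 rose and 3 did not pass, with a median log2 fold change of -0.18 against 0.011 over all genes. Of all genes tested, 16.2% were called lower there and 29.5% in either direction. Cacna1h fell with a log2 fold change of -0.39 (SE 0.070, edgeR adjusted p = 0.000569). The other 4 were Cacna1b, Cacna1e, Cacna1i and Cacna1g, with log2 fold changes of -0.19, -0.43, -0.52 and -0.15. Each of these 4 lost its call when single libraries were left out. Without GFP 2 the edgeR adjusted p was 0.119 for Cacna1b, 0.0800 for Cacna1e, 0.0589 for Cacna1i and 0.251 for Cacna1g. Calls were also lost without CFT 3, CFT 4 or GFP 3 for Cacna1b (0.0779, 0.0711 and 0.0590), without CFT 4 for Cacna1e (0.0568), and without WT 2, WT 3, CFT 1, CFT 3, CFT 4 or GFP 3 for Cacna1g (0.0504 to 0.0964). With only these groups in the fit, the adjusted p was 0.0572 for Cacna1b, 0.0510 for Cacna1i, 0.0686 for Cacna1e and 0.0727 for Cacna1g. Cacna1e also lost its call with no filter (0.0517), and Cacna1g with libraries 3 and 4 alone (0.194), the filter of 5 CPM (0.0685), DESeq2 (0.0539) or limma-voom (0.0545). The gene that rose was Cacna1d, an L-type pore, named after its values were seen. It stood at 93.4 ± 8.80 CPM in H1.4 CFT (n = 4) and 76.0 ± 7.49 CPM in GFP neurons (n = 3, edgeR adjusted p = 0.0106), and lost its call without GFP 3 (0.0568) or GFP 4 (0.0614). Cacna1a did not pass against GFP (-0.18, adjusted p = 0.0567) and gained a call there without CFT 1 (0.00496) or CFT 2 (0.0237), with no filter (0.00271) and with libraries 3 and 4 alone (log2 fold change -0.32, adjusted p = 1.04e-08). Cacna1d gained one against WT H1.4 without CFT 3 (0.0349), with no filter (0.0378) and with libraries 1 and 2 alone (0.00611). Between WT H1.4 and GFP, edgeR called 0 of 9, with 0 at an unadjusted p under 0.05 and 0 called by DESeq2 or limma-voom. Only 0.943% of all genes tested were called there, so the count is no result about the alpha1 genes.

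Of the 4 beta subunit genes, Cacnb2 fell in both comparisons. It stood at 17.5 ± 1.03 CPM in H1.4 CFT neurons (SD, n = 4), 24.7 ± 0.368 CPM in WT H1.4 (n = 4) and 25.0 ± 0.924 CPM in GFP neurons (n = 3). The log2 fold change was -0.50 against WT H1.4 (SE 0.070, edgeR adjusted p = 2.11e-05) and -0.51 against GFP (SE 0.076, adjusted p = 5.04e-05). Cacnb1 fell against GFP (log2 fold change -0.17, SE 0.052, edgeR adjusted p = 0.0188) and did not pass against WT H1.4 (-0.11, adjusted p = 0.0686). It lost its call against GFP without CFT 4 (0.0717) or GFP 2 (0.0587) and with libraries 1 and 2 alone (0.143), and gained one against WT H1.4 without CFT 1 (0.0215) and with libraries 3 and 4 alone (0.00745). Cacnb3 and Cacnb4 did not pass. The median of the 4 was -0.12 against WT H1.4 and -0.17 against GFP on the log2 scale. Thus 1 of 4 fell against WT H1.4, where 19.2% of all genes tested were called lower. Against GFP 2 of 4 fell, where 16.2% were.

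The Cacng genes encode gamma subunits, several of which are TARPs, partners of AMPA receptors at synapses. Of 8 genes 7 were tested, and against WT H1.4 5 fell, 1 rose and 1 did not pass, with a median log2 fold change of -0.25. Of all genes tested, 19.2% were called lower there and 16.2% against GFP. Cacng2, stargazin, fell to 23.6 ± 2.91 CPM in H1.4 CFT, against 37.4 ± 2.7 CPM in WT H1.4 (SD, n = 4 each, log2 fold change -0.66, SE 0.082, edgeR adjusted p = 5.62e-06). Cacng5 went the other way, at 16.7 ± 2.41 CPM in H1.4 CFT and 8.66 ± 0.468 CPM in WT H1.4 (log2 fold change 0.95, SE 0.11, edgeR adjusted p = 2e-06). Cacng3, Cacng4, Cacng6 and Cacng7 fell with log2 fold changes between -0.99 and -0.19. Cacng6 lost its call without WT 2, CFT 1 or CFT 3 (edgeR adjusted p 0.0914, 0.0871 and 0.0993), with libraries 1 and 2 alone (0.0655) and with libraries 3 and 4 alone (0.155). Cacng4 lost its call with libraries 1 and 2 alone (log2 fold change -0.10, edgeR adjusted p = 0.141). Against GFP 3 fell (Cacng2, Cacng3 and Cacng6), 1 rose (Cacng5) and 3 did not pass, and Cacng3 lost its call without GFP 2 (0.0544) while Cacng7 gained one without CFT 1 (0.00978) and with libraries 3 and 4 alone (0.00207). With libraries 1 and 2 alone, the calls of Cacng5 (log2 fold change 0.31, edgeR adjusted p = 0.193) and Cacng6 (0.0681) against GFP were lost. Cacng5 also fell in WT H1.4 relative to GFP neurons (log2 fold change -0.53, SE 0.12, edgeR adjusted p = 0.0353), which limma-voom did not call.

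**Figure D4:**
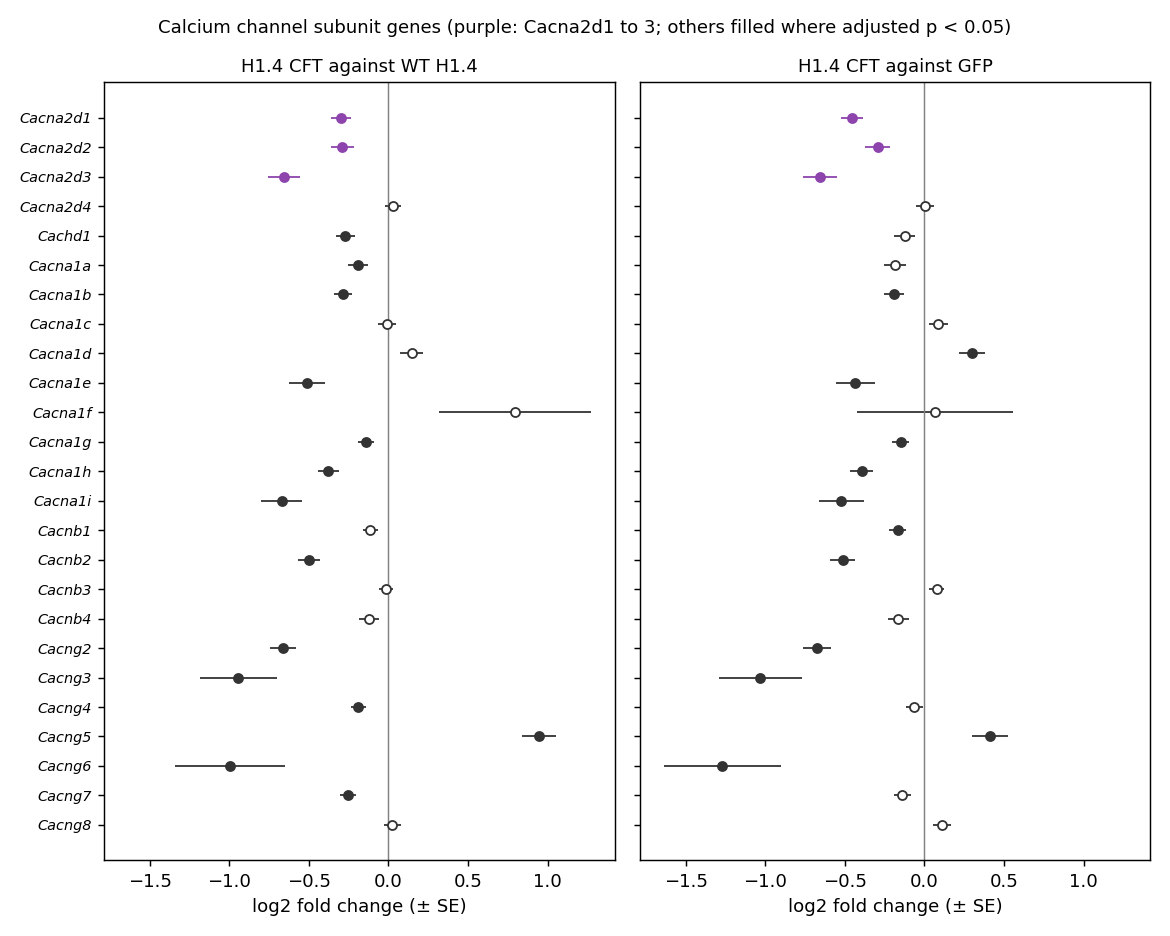
log2 fold change with its SE (x axis) of calcium channel subunit genes (rows) in H1.4 CFT relative to WT H1.4 (left) and against GFP (right); purple marks Cacna2d1 to 3, and of the other genes filled points had an adjusted p under 0.05. Cacna2d3 lies at -0.66 in both panels, Cacna2d4 near 0, and Cacng5 and, against GFP, Cacna1d lie to the right.

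Among genes for 10 proteins reported to bind alpha2delta subunits, 9 were tested. Against WT H1.4, 2 fell, 1 rose and 6 did not pass, with a median log2 fold change of -0.034. The 3 of 9 called there and the 3 of 9 called against GFP were near the 35.9% and 29.5% of all genes called, so the counts are no result about this list. Kcnma1, the pore of the BK potassium channel, fell to 53.0 ± 6.78 CPM in H1.4 CFT, against 73.3 ± 3.92 CPM in WT H1.4 (SD, n = 4 each, log2 fold change -0.47, SE 0.071, edgeR adjusted p = 7.92e-05). Prnp, the prion protein, rose to 382 ± 16.4 CPM, against 326 ± 15.9 CPM in WT H1.4 (log2 fold change 0.23, SE 0.045, edgeR adjusted p = 0.000571). The recycling endosome GTPase Rab11a fell slightly (log2 fold change -0.11, edgeR adjusted p = 0.0477), and its call was lost without any of WT 2, WT 3, WT 4, CFT 1, CFT 3, CFT 4 or GFP 3 (0.0507 to 0.165), with libraries 1 and 2 alone (0.110), and under either other filter, limma-voom or a fit of only these groups (0.0511 to 0.0824). Against GFP, a comparison that shares the H1.4 CFT libraries, 2 fell, 1 rose and 6 did not pass. The log2 fold changes were -0.52 for Kcnma1, 0.36 for Prnp and -0.35 for Thbs3, a thrombospondin (edgeR adjusted p = 8.67e-05, 2.26e-05 and 0.00949). With libraries 3 and 4 alone Thbs3 had -0.22 and lost its call (adjusted p = 0.122). Thbs1, Thbs2, Thbs4, Lrp1 and Grin1 did not pass in either comparison, and Comp was too low to test.

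Most genes of the presynaptic scaffold and release machinery, where alpha2delta-bearing channels work, fell in H1.4 CFT neurons. Of 13 genes, 11 fell against WT H1.4 and 11 against GFP, with median log2 fold changes of -0.36 and -0.33. Of all genes tested, 19.2% and 16.2% were called lower in these comparisons. The active zone scaffold Erc2 fell to 92.0 ± 10.4 CPM in H1.4 CFT, against 134 ± 1.70 CPM in WT H1.4 (SD, n = 4 each, log2 fold change -0.55, SE 0.063, edgeR adjusted p = 5.69e-06). Unc13a, which primes vesicles, fell with a log2 fold change of -0.46 (edgeR adjusted p = 8.24e-06), Pclo, piccolo, with -0.58 (2.65e-05), and Syt1, the calcium sensor of release, with -0.53 (0.000192). Snap25 and Stx1a did not pass in either comparison. Between WT H1.4 and GFP, edgeR called 0 of the 13, with 1 at an unadjusted p under 0.05 and 0 by DESeq2 or limma-voom. That comparison had 0.943% of all genes tested called, so its count is no result about the list. These lists were drawn up with earlier results of the libraries known.

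Markers of cell types moved with the same groups. Of 6 neuronal markers, 4 fell in H1.4 CFT against both WT H1.4 and GFP (Rbfox3, Tubb3, Map2 and Syn1). The neuronal markers Snap25 and Elavl3 did not pass, with log2 fold changes of 0.077 and -0.025 against WT H1.4. Against GFP these were -0.061 and 0.10. Of 5 excitatory markers 4 fell in each comparison. The excitatory marker that did not pass differed. It was Slc17a7 against WT H1.4 (log2 fold change 0.022, edgeR adjusted p = 0.844) and Prox1 against GFP (-0.026, adjusted p = 0.882). Excitatory markers summed to 798 to 998 CPM in the H1.4 CFT libraries, 1131 to 1168 CPM in WT H1.4 and 1203 to 1309 CPM in GFP libraries. Astrocyte markers summed to 1604 to 1734 CPM in the H1.4 CFT libraries, 1190 to 1272 CPM in WT H1.4 and 1557 to 1708 CPM in GFP libraries, and 4 of 7 rose against WT H1.4 and 1 against GFP. Inhibitory markers summed to 145 to 184 CPM in the H1.4 CFT libraries, 117 to 139 CPM in WT H1.4 and 160 to 209 CPM in GFP libraries, with 5 of 8 rising against WT H1.4, and 1 rising (Dlx2) and 2 falling (Slc32a1 and Npy) against GFP. In WT H1.4 relative to GFP neurons, 4 of 7 astrocyte and 5 of 8 inhibitory markers fell, while limma-voom called 4 and 3. In that comparison 2 of 7 endothelial, mural and fibroblast markers tested also fell (Col1a1 and Col1a2). Of 8 oligodendrocyte lineage markers 1 rose there (Cspg4). The shares of all genes tested were 0.943% called and 0.509% called lower in WT H1.4 against GFP. The neuronal and excitatory sums of H1.4 CFT were below both controls, as were the 3 alpha2delta genes, and the astrocyte and inhibitory sums were above WT H1.4 and overlapped GFP. Such sums weigh the most abundant markers most and do not show that each marker fell. In the neuronal sum these were Tubb3 (1237 CPM in H1.4 CFT, 1662 CPM in WT H1.4) and Map2 (905 and 1319 CPM). Oligodendrocyte lineage markers summed to 427 to 491 CPM in the H1.4 CFT libraries, 436 to 518 CPM in WT H1.4 and 427 to 524 CPM in GFP libraries, with 0 of 8 called against WT H1.4, 2 at an unadjusted p under 0.05, 0 by DESeq2 and 1 by limma-voom, and 1 of 8 (Cspg4) risen against GFP. Endothelial, mural and fibroblast markers summed to 57.4 to 69.3 CPM in the H1.4 CFT libraries, 53.2 to 67.9 CPM in WT H1.4 and 73.6 to 80.4 CPM in GFP libraries, and of 7 tested 3 rose and 1 fell against WT H1.4 and 1 rose and 1 fell against GFP. Of the 7 microglial markers 2 could be tested, and in the H1.4 CFT libraries Csf1r rose and P2ry12 fell against each control. Csf1r had few reads, 82 over all H1.4 CFT libraries, 28 over WT H1.4 and 14 over GFP. For P2ry12 the H1.4 CFT libraries overlapped those of each control. Over all genes tested, the share called in either direction was 35.9% for H1.4 CFT relative to WT H1.4 and 29.5% for H1.4 CFT relative to GFP. The share called lower was 19.2% and 16.2%. Marker counts near these shares are no result about their lists. Those of the inhibitory and of the endothelial, mural and fibroblast markers against GFP are examples. No marker list was tested against all genes. The part of the markers in the alpha2delta levels was not tested either.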

How the data were processed

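Polyadenylated RNA of 11 libraries was sequenced. The authors deposited raw, unscaled counts for each gene symbol, made with STAR 2.7.2b, HTSeq 0.10.0 and the mRatBN7.2 build, per the submitters' processing notes. The annotation release and strand setting are not given in the sources used here. Each file held 42177 entries, 5 of them summaries of the counter that were left out. Between 45.2% and 46.0% of reads fell in no feature and 0.396% to 0.430% were ambiguous.

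The fit used R 4.3.3, edgeR 4.0.16 (TMM scaling, filterByExpr with a minimum count of 10 and total of 15, robust quasi-likelihood test on group alone, all 11 libraries), with Benjamini-Hochberg adjustment over 17294 genes and a threshold of 0.05. The biological coefficient of variation was 7.02% with 8 residual degrees of freedom. The SE is the log2 fold change divided by the square root of its F. The code was tested on simulated data. The members and lists were chosen with earlier results of these data known. Genes named were the members, Cacna2d4, overlapping genes, the detected genes of each list, with values for up to 6 called genes per list by smallest adjusted p, and the 5 genes most like each member by Pearson's r.

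Equal replicate numbers were checked by correlating residuals. These were 0.142 to 0.192 for the H1.4 CFT libraries with those of WT H1.4 and 0.124 to 0.255 between H1.4 CFT and GFP. Between WT H1.4 and GFP they were 0.0927 to 0.206. Libraries of unequal numbers were not correlated for comparison, so these values cannot show whether the numbers pair libraries. The main fit took no account of the numbers. Alternatives were RLE scaling, DESeq2 1.42.0, limma-voom (limma 3.58.1), no filter, the replicate block, a filter of 5 CPM in 3 libraries, only the groups compared, libraries 1 and 2 or 3 and 4 alone, and leaving out each library. Gene spans for overlaps came from a GRCr8 table that matched 29477 of 42172 symbols and served only for names. Transcript lengths and protein sequences were not used here. A gene of the lists is not reported here.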

Additional observations from a re-analysis of the deposited data

Results flagged for a closer look

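Cacng6 was at 1.74 CPM in WT 2, while the other 3 WT H1.4 libraries had 1.15 to 1.19 CPM. The gap was 0.934 of the range of the group, above the critical value of 0.829 for 4 libraries. This was the only flag among 68 groups of 4 libraries, and chance flags about 1 in 20 such groups.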

How the results depend on the processing

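All 120 log2 fold changes of the 3 alpha2delta genes in H1.4 CFT under 20 alternatives were below 0. Leaving out single libraries gave -0.35 to -0.25 (Cacna2d1), -0.34 to -0.26 (Cacna2d2) and -0.72 to -0.58 (Cacna2d3) against WT H1.4. Against GFP the ranges were -0.50 to -0.40, -0.35 to -0.23 and -0.74 to -0.58. Values moved by more than the spread with libraries 1 and 2 alone: against WT H1.4 Cacna2d1 -0.14 and Cacna2d3 -0.43; against GFP Cacna2d2 -0.46 and Cacna2d3 -0.32; and in WT H1.4 against GFP Cacna2d2 -0.11. With libraries 3 and 4 alone they were -0.47 and -0.91 against WT H1.4 and -0.56 and -0.92 against GFP for Cacna2d1 and Cacna2d3. In libraries 1 and 2 GFP has 1 library, assumed to vary like the others. Genes called numbered 6217 for H1.4 CFT relative to WT H1.4 (5030 to 6444 without single libraries) and 5098 against GFP (3966 to 5132, and 3331 in libraries 1 and 2). For WT H1.4 against GFP 163 were called, against 277 by DESeq2, 462 without filter, 248 with the replicate block, 348 with only these groups, 1596 in libraries 3 and 4, and 44 to 306 without single libraries (306 without GFP 2, 44 without GFP 3, 45 without GFP 4, and 105, 91, 103 and 84 without WT 1 to WT 4). The block also ended the calls of Cacna1g against GFP (adjusted p = 0.0736) and Rab11a against WT H1.4 (0.0568) and added Cacna1a (0.0190) and Cacng7 (0.0424) against GFP and Cacna1d against WT H1.4 (0.0230), and changed no other call of a named list gene. The cause was not tested. Counting error limits Cacna2d2 most, at 3.96% to 5.04% per library.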
